A study of Mus musculus with 21 samples.

Results

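ES-only domain edges are the starts and ends of chromatin domains that 2 Hi-C lists of mouse embryonic stem (ES) cells shared and that 2 lists of Th2 cells lacked. They were taken from the list of ES replicate 1, whose 1828 domains had 2887 distinct starts and ends. An edge was kept when ES replicate 2 had an edge within 40 kb of it and neither Th2 list had an edge within 200 kb. By this rule 439 of the 2887 edges were ES-only (15.2%). The edges were thus chosen by the measured edge positions of all 4 lists, so their presence in ES and absence in Th2 lists is a description and was not tested.

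The part of the series used here was 3e Hi-C, a form of chromosome conformation capture in which chromatin is cut with 3 restriction enzymes before ligation, with 2 libraries for each cell type. The ES libraries came from the R1 line (strain 129X1 x 129S1), grown on feeder-coated dishes, and the share of feeder cells in the libraries is not given. The Th2 libraries came from C57BL/6 mice, as naive CD4+ T cells sorted from lymph nodes and taken through 2 rounds of culture with IL-4, IL-2 and antibodies against IFN-gamma and IL-12. Cell type and mouse strain therefore differed together between the groups and cannot be told apart, and R1 is a single line. No genome edit or knockdown is named for these 4 libraries, and the labels give neither the age nor the number of the mice, nor whether libraries of 1 cell type came from separate cultures.

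Chromatin domains, often called topologically associating domains, are blocks of a chromosome within which contacts are frequent, and their edges are places where contacts across the position are depleted. In mammals many edges hold sites of CTCF, a zinc-finger protein at which loops extruded by cohesin tend to stop, and others lie near active promoters. ES cells are pluripotent, whereas Th2 cells are differentiated helper T cells that make the cytokines IL-4, IL-5 and IL-13. In what follows, a start or an end faces a stretch outside all domains (a gap), and an abutting edge is the end of 1 domain and the start of the next.

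The ES lists held 1828 and 1833 domains with 2887 and 2990 edges in replicates 1 and 2, and the Th2 lists held 1961 and 1689 domains with 2587 and 2568 edges. Between replicates, 78.4% and 78.0% of the edges of ES replicates 1 and 2 and 72.4% and 78.8% of those of Th2 replicates 1 and 2 had a counterpart within 40 kb. A single list also missed edges that the other 3 shared. Of edges present in 3 lists within 40 kb, the share over 200 kb from any edge of the fourth was 7.69% for ES replicate 1, 7.42% for ES replicate 2, 5.50% for Th2 replicate 1 and 10.5% for Th2 replicate 2. The lists carry no score or read number, so the depth behind an edge is unknown.

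Of the 2887 edges of ES replicate 1, 2264 recurred in ES replicate 2. Among these reproduced edges, 1119 (49.4%) had an edge within 40 kb in both Th2 lists, 439 (19.4%) were ES-only and 706 lay in between. In 220 of the 706, 1 Th2 list had the edge within 40 kb while the other had none within 200 kb. It was Th2 replicate 2 that lacked the edge in 148 of these 220 and Th2 replicate 1 in 72. With 1 Th2 list left out, 645 (without replicate 1) or 551 (without replicate 2) edges would be ES-only. Without the demand for a counterpart in the other ES list, the number would be 714 from ES replicate 2 alone and 696 from ES replicate 1 alone.

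By the rule ES-only edges lay away from Th2 edges, and their distances were not compared with those of other positions. On the 40 kb grid the smallest distance the rule allows is 240 kb, the quartiles were 360, 560 and 960 kb, and the largest distance was 4240 kb. Of the 439, 294 lay over 400 kb and 106 over 1000 kb from the nearest Th2 edge. Just inside the threshold, 39 ES-only edges were 240 kb from a Th2 edge, as at positions 12560000 and 29920000 of chromosome 2. Just outside it, 50 reproduced ES edges were at exactly 200 kb, as at positions 10160000 and 136000000 of chromosome 1. Across the threshold the count per grid step thus went from 50 to 39. The 100 kb bars of the plot hold unequal numbers of grid steps, so neighbouring bars are not like counts.

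**Figure D1:**
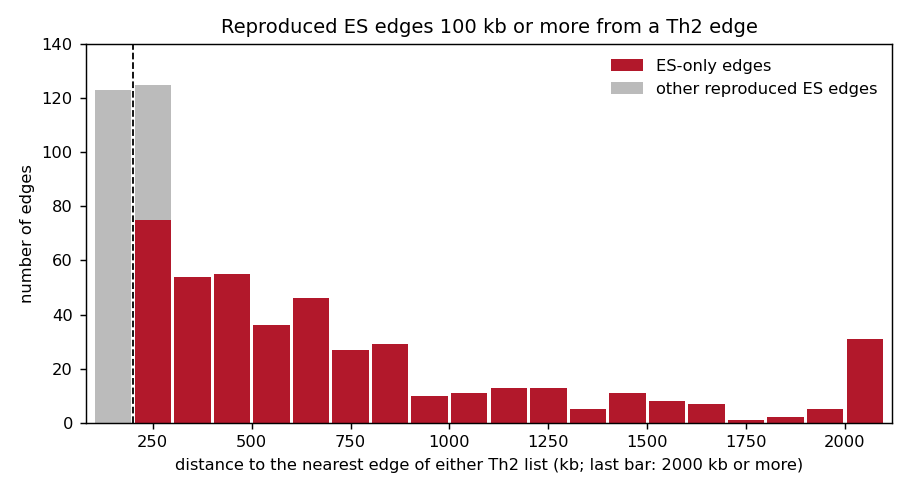
Number of reproduced ES replicate 1 edges (vertical axis) by distance in kb to the nearest edge of either Th2 list (horizontal axis), in bars of 100 kb from 100 kb on. Red bars are the 439 ES-only edges, grey bars are other reproduced edges, the dashed line marks 200 kb, the 1652 edges under 100 kb are not drawn and the last bar holds the 31 edges at 2000 kb or more.

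The ES-only edges were not all separate places. Of the 439, 163 were starts, 153 were ends and 123 were abutting edges. In 91 gaps of ES replicate 1 the edges on both sides were ES-only, which took up 182 edges. Counting each such gap once left 348 breaks, namely 123 abutting edges, 91 gaps and 134 other starts or ends. Of these, 129 faced an edge across the gap that was not ES-only, and 5 were the outermost ES edge of their chromosome. The 91 gaps were mostly narrow, with a median of 80 kb (2 grid steps), and 72 of them were 200 kb or shorter. The 129 gaps with an ES-only edge on 1 side had a median of 320 kb. Abutting edges and gaps of 200 kb or less with ES-only edges on both sides together made up 195 of the 348 breaks (56.0%), so in most of them 1 ES domain followed the last directly or after a short interruption.

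The mix of edge kinds followed that of the list. Abutting edges made up 28.0% of the ES-only edges, 26.6% of all edges of ES replicate 1 and 38.1% of the 1119 edges common to all 4 lists. Edges found only in Th2 cells, taken by the same rule with the cell types exchanged, numbered 342 from Th2 replicate 1, and 51.8% of them were abutting. In all of Th2 replicate 1 the share was 51.6%.

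On the 40 kb grid the rule leaves displacements of 0 or 40 kb between the ES replicates. Of the 439, 302 (68.8%, 95% exact binomial interval 64.2 to 73.1%) lay at the same grid position in ES replicate 2, 81 lay 40 kb to the left there and 56 lay 40 kb to the right. The same position was found for 76.1% (73.4 to 78.5%) of the edges common to all 4 lists and for 75.7% (70.8 to 80.2%) of the Th2-only edges in their own replicate. These intervals cover counting error only, and edges of 1 list are not independent, so the difference of the ES-only edges from the common edges was not tested. The kind of edge, which the rule did not use, was the same in both ES lists for 355 of 439 (80.9%). This share was not taken for other edges, so whether it is high or low for these lists is not known. In 70 edges 1 list had an abutting edge where the other had a start or an end, and in 14 a start stood opposite an end.

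Most ES-only edges fell inside a Th2 domain. Of the 439, 360 (82.0%, interval 78.1 to 85.5%) lay in the interior of a domain in both Th2 lists, 61 (13.9%) lay in a gap in both, and 18 (4.10%) lay in a domain of 1 list and a gap of the other. Part of this follows from where such an edge can lie. Of the 40 kb grid positions over 200 kb from all Th2 edges, which were 56.7% of all positions, 71.6% were in a domain of both Th2 lists and 20.0% in a gap of both. There were 0.353 ES-only edges per Mb of such positions in Th2 domains and 0.214 per Mb in Th2 gaps. For Th2-only edges the corresponding places in the ES lists were a domain in both for 331 of 342 (96.8%), against 85.2% of the positions open to them, and a gap in both for 8.

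Around the edges, cover by domains changed in the ES lists and was flat in the Th2 lists. At 40 to 120 kb on the outer side of the 163 starts, 27.6% of positions were in a domain in ES replicate 1 and 29.8% in ES replicate 2, against 79.8% and 79.1% in Th2 replicates 1 and 2. On the inner side the cover was 100% and 98.8% in the ES lists and again 79.8% and 79.1% in the Th2 lists. The 153 ends gave the mirror image, with 27.5% and 35.0% in ES replicates 1 and 2 on the outer side against 79.1% and 81.0% in the Th2 lists. At the same distances from abutting edges all 4 lists were covered on both sides, at 95.1% or more. The rule forbids any change of cover within 200 kb in the Th2 lists, so their flat course is a property of the selection. The change in the ES lists is one too. A start or end of ES replicate 1 has a domain on 1 side only, and ES replicate 2 must have an edge within 40 kb. The contrast between the cell types beside the edges is therefore a description and was not tested. Over all 40 kb bins the cover was 79.6% in Th2 replicate 1 and 77.3% in Th2 replicate 2, so the Th2 level at starts and ends was about that of the whole genome, and that beside abutting edges was higher.

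**Figure D2:**
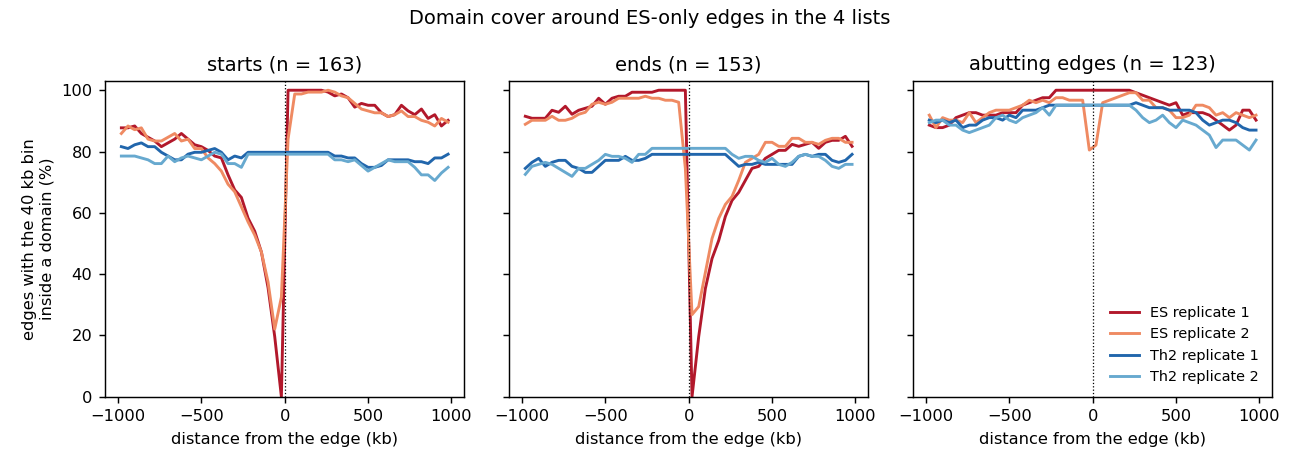
Share of ES-only edges (vertical axis, %) at which the 40 kb bin at a given distance from the edge (horizontal axis, kb) lay inside a domain, for 163 starts, 153 ends and 123 abutting edges, with 1 line per list. The ES lines fall steeply outside a start or end and recover within about 500 kb, while the Th2 lines run between 70.6% and 82.8% at starts and ends, and at abutting edges are at 95.1% beside the edge and fall to as low as 80.5% farther out.

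The Th2 domains that held ES-only edges were long. In Th2 replicate 1, 368 of the 439 edges lay in 251 domains, which had a median length of 1720 kb (quartiles 1120 and 2620 kb), against 680 kb for all 1961 domains and 880 kb for the 1475 domains longer than 400 kb. In Th2 replicate 2, 370 edges lay in 249 domains with a median of 1800 kb, against 840 kb for all 1689. The rule itself asks for 240 kb on each side, so a host cannot be shorter than 480 kb. The share of Th2 replicate 1 domains with an ES-only edge was 5.69% at 400 to 1000 kb, 24.7% at 1000 to 2000 kb, 43.7% at 2000 to 4000 kb and 65.9% above 4000 kb. The density was also taken per Mb over 200 kb from all Th2 edges, in all domains of a length class, with or without an ES-only edge. It was 0.336, 0.377, 0.335 and 0.275 edges in these length classes. Longer Th2 domains thus more often held an ES-only edge, while the density over the positions open to such edges did not climb with length.

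Of the 251 host domains in Th2 replicate 1, 163 held 1 ES-only edge, 66 held 2, 18 held 3 and 4 held more. Of the edges in hosts, 77.7% lay in the middle 50% of the host's length, where 62.2% of positions over 200 kb from the host's own ends lay. In Th2 replicate 2 these shares were 75.7% and 61.8%. The shares are weighted differently, since a host counts by its edges in the first and by its length in the second. In short hosts the rule leaves mainly central positions open. A central tendency was therefore not tested. Few hosts had both outer borders in the ES lists, and few other Th2 domains did. Both borders had an ES edge within 40 kb in both ES lists for 57 hosts (22.7%), 1 border did for 119 and neither did for 75. Among the 1224 Th2 replicate 1 domains longer than 400 kb without an ES-only edge, 319 (26.1%) had both borders in both ES lists. At 2000 to 4000 kb the shares were 13 of 69 hosts (18.8%) and 36 of 89 other domains (40.4%), while at 1000 to 2000 kb they were 29.0% and 31.6%, and these differences were not tested. The 57 hosts held 73 ES-only edges. The hosts were also not always the same in the Th2 replicates, since 115 of 251 (45.8%) had a domain with both borders within 40 kb in Th2 replicate 2.

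The host with the most ES-only edges was chr8:43000001-49200000 (mm9), a domain of 6200 kb in Th2 replicate 1 and of 6240 kb in Th2 replicate 2. It held 7 ES-only edges, at 3360, 3440, 4080, 4240, 5040, 5520 and 5800 kb from its start. All 7 lay at the same grid positions in both ES lists. They left the first 3360 kb nearly whole and divided the rest into shorter domains, with gaps of 80, 160 and 280 kb between some of them. At 5040 kb the ES replicate 1 domains abutted, while ES replicate 2 had an end there and the next start at 5080 kb.

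On chromosome 15, chr15:53840001-57360000 was a domain of 3520 kb with identical borders in both Th2 lists. Its ES-only edges were ends at 1560 and 2080 kb and starts at 1680 and 2280 kb from its start in ES replicate 1. Their counterparts in ES replicate 2 were at 1560, 1680, 2040 and 2280 kb. ES replicate 1 also had an end at 40 kb and a start at 720 kb that were not ES-only. ES replicate 2 had a further start at 600 kb. Together the ES domains covered 71.6% of the Th2 domain in replicate 1 and 72.7% in replicate 2. The uncovered part includes the gap before the starts at 720 and 600 kb. On chromosome 12, chr12:56960001-60080000 held 4 ES-only edges at 800, 1360, 1400 and 1960 kb from its start, all at the same position in ES replicate 2. The list that the authors made from both Th2 libraries combined had 1 edge inside this domain. It had none inside the hosts named here on chromosomes 8, 15 and 6. On chromosome 6, a Th2 domain of 8520 kb, chr6:73280001-81800000, which ran on to 83800000 in Th2 replicate 2, held 3 and was the longest of the 18 hosts with that number. The ES lists differed in that domain outside the ES-only edges, since replicate 1 had a gap from 880 to 2920 kb from its start that replicate 2 did not have.

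On chromosome 2, chr2:84280001-90160000 (5880 kb) was called with the same borders in both Th2 lists and held 4 ES-only edges. They bounded 2 gaps, from 85440000 to 85520000 and from 88040000 to 88200000, so that the domain between them, chr2:85520001-88040000, had ES-only edges at both ends. The list that the authors made from both Th2 libraries combined had an edge at the first of these gaps, at 0 and 40 kb from its sides. It had none near the second, where the nearest combined Th2 edge was 1960 kb away. At the first gap the combined Th2 list thus goes against the name ES-only, although the nearest edge of both Th2 library lists was 1160 kb away.

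**Figure D3:**
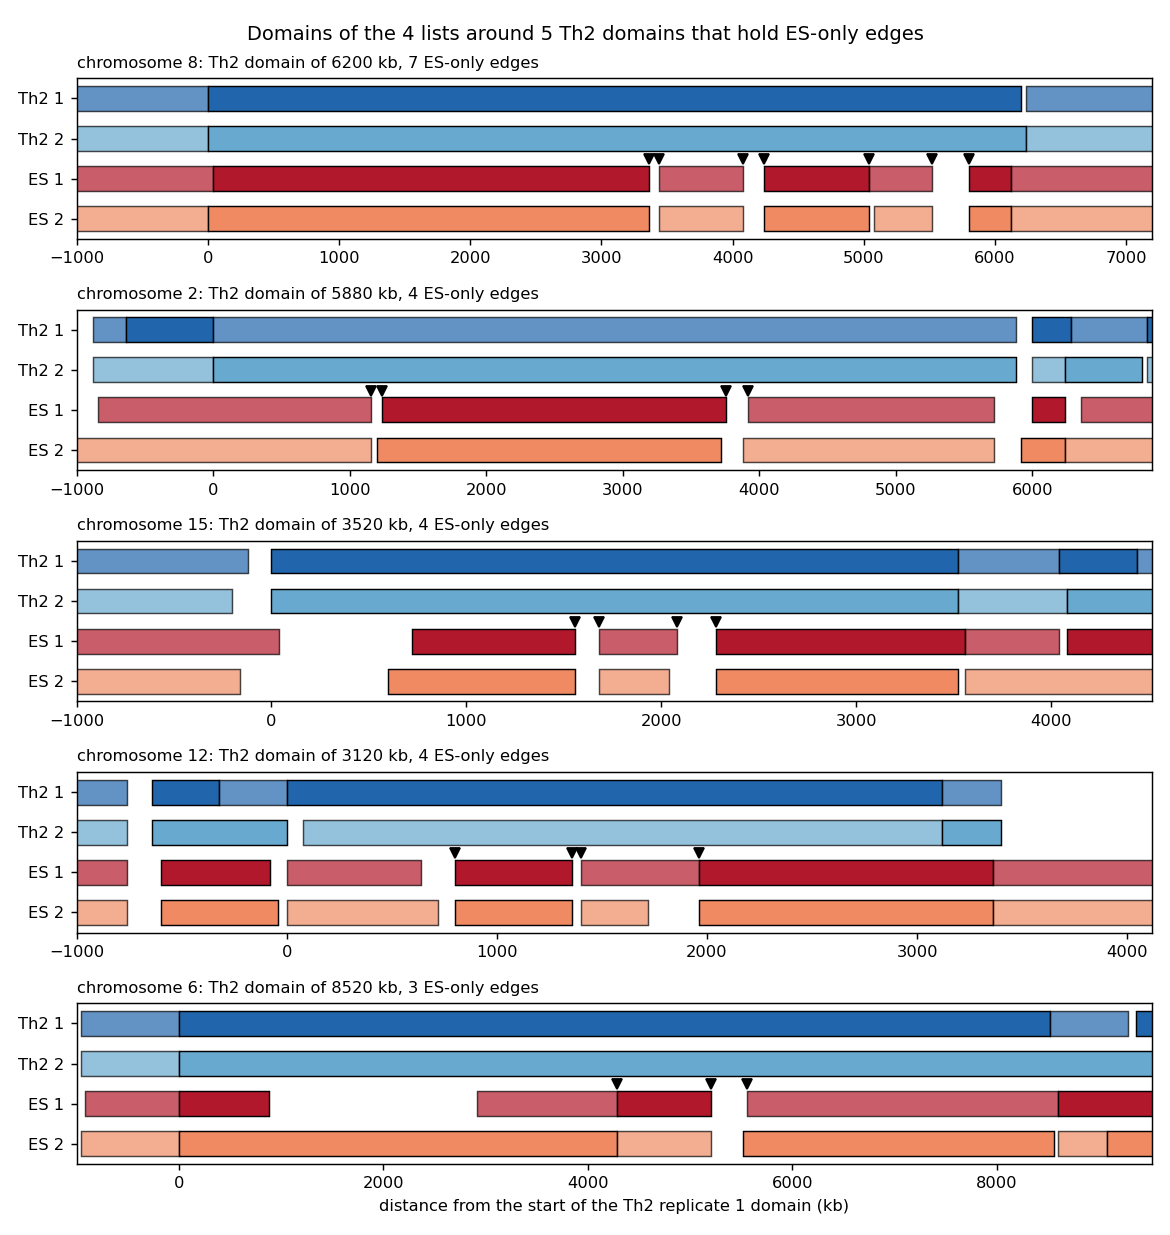
Domains (boxes, in alternating shades) of the 4 lists around 5 Th2 replicate 1 domains, the 4 with the most ES-only edges and the longest of the 18 that hold 3, by distance in kb from the start of that domain. Black triangles mark the 7, 4, 4, 4 and 3 ES-only edges, each of which falls within 1 unbroken box in both Th2 rows and at or within 40 kb of a box border in both ES rows.

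The 61 ES-only edges in Th2 gaps lay in 41 gaps of Th2 replicate 1, of which 4 ran to the outermost part of a chromosome. The other 37 had a median length of 2760 kb and ranged from 960 to 11440 kb. Of the 61, 30 were starts, 26 were ends and 5 were abutting edges. At these edges the ES lists thus had a domain on at least 1 side where both Th2 lists had none.

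The edges farthest from any Th2 edge came from both settings. The farthest, at 77560000 on chromosome 6, was an abutting edge in both ES lists, 4240 and 4280 kb from the nearest edge of Th2 replicates 1 and 2, inside the Th2 domain described above. An end at 78480000 in the same domain was 3320 and 5200 kb away. On chromosome 14 an end at 111200000 and a start at 111360000 bounded a 160 kb break inside a Th2 gap of 8280 kb in replicate 1 and 8760 kb in replicate 2. They were 4000 and 3840 kb from Th2 edges. The remaining 1 of the 5, at 95272651 on chromosome 17, was off the 40 kb grid and was the outermost coordinate of that chromosome in the 4 lists. It marks a domain that ran to the chromosome's end in both ES lists, not an internal edge.

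ES domains with ES-only edges at both ends numbered 58 of 1828 (3.17%), and 446 more had 1 such end. The 58 had a median length of 840 kb (quartiles 560 and 1830 kb), the 446 a median of 960 kb and the 1324 domains with no ES-only end a median of 880 kb. Domains with both ends ES-only recurred with both borders within 40 kb in ES replicate 2 in 49 of 58 cases (84.5%), those with 1 such end in 65.7% and those with none in 50.3%. The rule asks for each ES-only edge to recur, so this order follows from the selection. Of the 58, 37 lay wholly within 1 Th2 domain in both lists, with a median length of 640 kb, and 5 lay in a gap of both. The other 16 held at least 1 Th2 edge between their ends and had a median of 2140 kb.

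The longest of the 58 differed in how far Th2 domains covered them, although by the rule no Th2 domain could share their borders. The longest, chr17:89040001-95272651, ended at the chromosome end and was split by 2 edges in ES replicate 2. The next, chr14:89480001-94320000 (4840 kb), was called in both ES lists and had 0% cover in both Th2 lists. Next in length was chr18:15040001-19760000 (4720 kb), which was not kept whole in ES replicate 2 and was covered to 43.2% and 16.9% in Th2 replicates 1 and 2. A domain of 4040 kb, chr16:71240001-75280000, was kept in both ES lists and covered to 77.2% and 76.2% in the Th2 lists, with 1 Th2 edge inside. The fifth, chr3:109320001-112920000 (3600 kb), held 1 edge of ES replicate 2 and was covered to 26.7% and 7.78% in the Th2 lists.

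**Figure D4:**
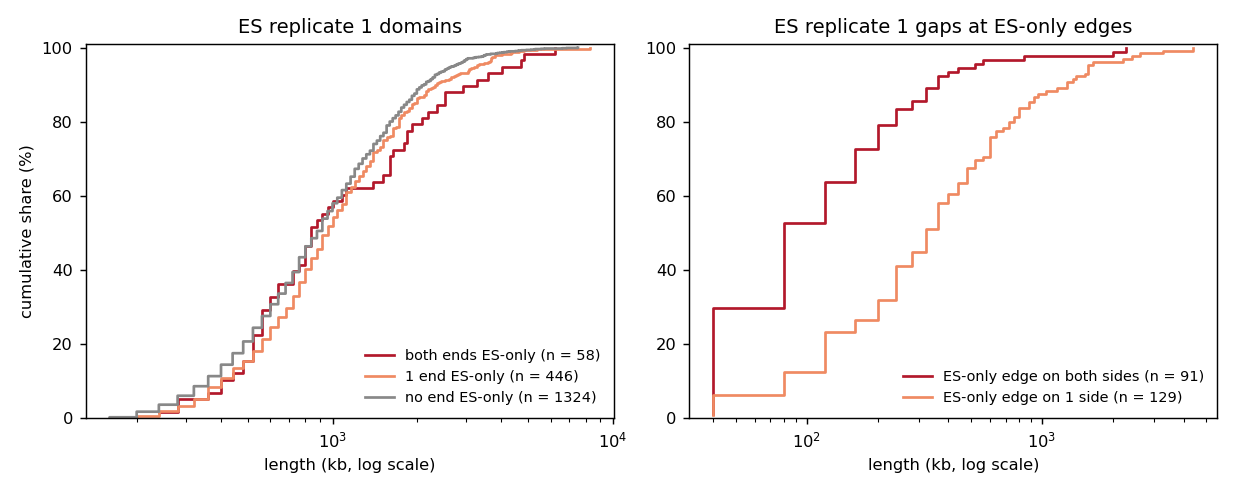
Cumulative share (vertical axis, %) of ES replicate 1 domains (left) and of ES replicate 1 gaps at ES-only edges (right) by length in kb on a log axis. The 3 domain curves run close together up to their medians of 840, 960 and 880 kb, while gaps with an ES-only edge on both sides are shorter (median 80 kb) than those with 1 on 1 side (median 320 kb).

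Spacing along the chromosome depended on whether edges or breaks were counted. By edges, the median distance from an ES-only edge to the nearest other one on either side was 840 kb, and 236 of 439 (53.8%) had another within 1000 kb, against 1880 kb and 36.5% for the 342 Th2-only edges. Many of these neighbours were the other side of the same gap. Over the 348 breaks, with each gap placed at its middle, the median distance to the nearest other break was 2640 kb (quartiles 1235 and 4880 kb), and 75 (21.6%) had another within 1000 kb. The 308 breaks of the Th2-only edges had a median of 2620 kb, and 22.1% had another within 1000 kb. The closer spacing of the ES-only edges was thus not seen over breaks. In the order of edges in ES replicate 1, the 439 formed 290 runs of neighbours, of which 186 were single edges, 73 were pairs and 31 were runs of 3 or more, the longest of 7.

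Every chromosome carried ES-only edges, and the shares differed little beyond counting error. The highest shares were 22.1% on chromosome 15 (25 of 113 edges), 19.7% on chromosome 8 (28 of 142) and 19.0% on chromosome 14 (23 of 121). The lowest were 7.14% on chromosome 19 (5 of 70), 11.3% on chromosome 7 (16 of 142) and 11.5% on chromosome 4 (20 of 174). The 95% exact binomial interval of each of the 20 chromosomes included the share over all edges of 15.2%. Starting from ES replicate 2, the shares of chromosomes 15 and 19 were 21.3% and 6.67%. On chromosome X, 16 of 97 edges (16.5%) were ES-only. Per 10 Mb open to such edges chromosome X had 1.35, the lowest density of all chromosomes, and chromosome 15 had the highest with 4.51.

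**Figure D5:**
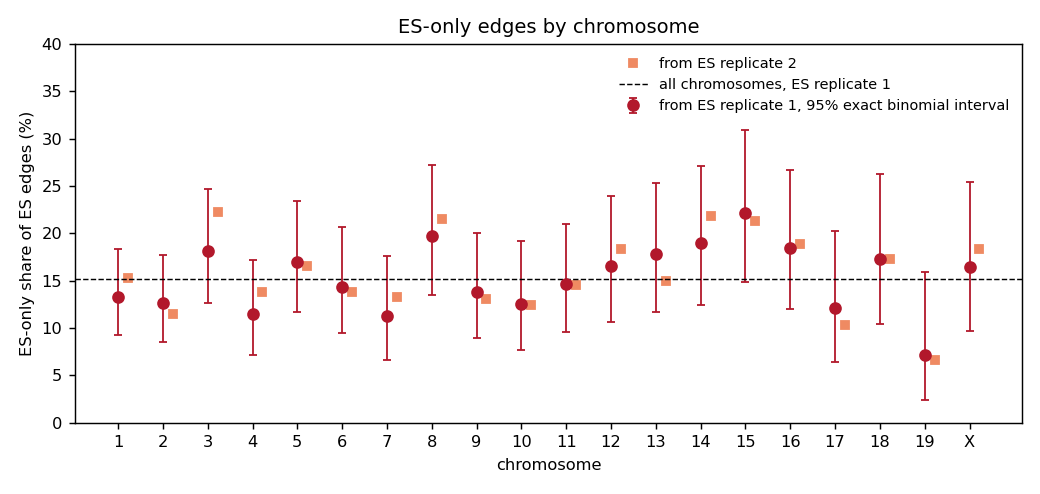
Share of ES edges that were ES-only (vertical axis, %) on each chromosome (horizontal axis), for ES replicate 1 (circles, bars are 95% exact binomial intervals) and ES replicate 2 as the starting list (squares). The dashed line is the share over all chromosomes in ES replicate 1, and each of the 20 intervals includes it.

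In these lists ES cells had somewhat more edges of their own than Th2 cells. The share of edges that were reproduced and absent from the other cell type was 15.2% and 15.7% with ES replicates 1 and 2 as the starting list, and 13.2% and 14.2% with Th2 replicates 1 and 2. The means were 15.5% and 13.7%, a difference of 1.75 percentage points, with both ES values above both Th2 values. These shares also carry how often the edges of a list were reproduced. Among reproduced edges only, the shares were 19.4% and 20.2% for ES replicates 1 and 2, and 18.3% and 18.0% for Th2 replicates 1 and 2. Each value uses all 4 lists, so the 2 values of a cell type are not separate replicates and no SD is given. An exact two-sided permutation test over the 4 libraries cannot go below 0.333, the p it gave, so it does not bear on the difference. In numbers, 439 ES-only edges stood against 342 Th2-only edges, a ratio of 1.28, and ES-only edges were more frequent on 15 of 20 chromosomes. A gap can count as 2 edges and an abutting edge counts as 1, and 28.0% of the ES-only against 51.8% of the Th2-only edges were abutting. Counted as breaks, the numbers were closer, with 348 ES-only against 308 Th2-only. The ratio of edges was 0.905 without Th2 replicate 2, where edges of Th2 replicate 1 needed no counterpart to count as Th2-only.

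The lists made by the authors from the combined libraries of each cell type held most of the ES-only edges. Of the 439, 419 had an edge within 40 kb in the combined ES list, 340 of them at the same position, and 11 were over 200 kb from any. In the combined Th2 list, 32 of the 439 had an edge within 200 kb and 24 within 40 kb, although the library lists had none. Of these 32, 27 lay inside a domain in both Th2 library lists. Altogether 389 (88.6%, interval 85.3 to 91.4%) were ES-only in the combined lists too. The combined lists come from the same libraries and are not independent evidence. Taken alone, the combined lists gave 963 ES edges without a Th2 edge within 200 kb, of 3152, and 401 of these (41.6%) were within 40 kb of 1 of the 439.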

How the data were processed

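Reads were aligned to the mouse build mm9 with Bowtie2, per the submitters' processing notes. How domains were called: not given in the sources used here. For every single library, and once for both libraries of a cell type joined, the authors deposited a list of domain starts and ends in base pairs on a 40 kb grid (unit: other), with no score or signal. Starts were taken as BED coordinates and are printed 1-based, and an edge is given by the last base to its left. The expression tables and the other 17 samples are not used here, since genes could not be placed on mm9 without an annotation of that build. For the same reason no sequence is printed.

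Edges were compared by distance with Python 3.11.15, numpy 2.4.6, scipy 1.17.1 and pandas 2.3.3, and plots drawn with matplotlib 3.10.9. The code of the rule was checked on simulated lists, in which it returned each planted edge and no other. That check gives no rate of missed or false edges in the real lists. Intervals are 95% exact binomial (Clopper-Pearson) and cover counting error only. The p-value of the exact permutation test is the smallest that this test can give. Each value behind it uses the lists of both cell types, so the p-value does not measure the spread between libraries. Differences between libraries may be technical. Members and the regions named (the 5 farthest edges, the 5 longest domains with ES-only ends and the 5 Th2 domains with the most ES-only edges, ties by length) were chosen with earlier results of these data known.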

Additional observations from a re-analysis of the deposited data

How the results depend on the processing

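The difference between the cell types kept its direction in every alternative that could give it, at 0.232 to 3.93 percentage points. The p was 0.333 in each by the exact permutation test, its floor, and the difference was lowest with edges at the same position only. Starting from ES replicate 2 cannot change the difference, which already uses each list as the start. The difference was not computed with a library left out, since a reproduced share needs 2 lists. With the same position required in both ES lists, 10.5% of edges were ES-only and 87.1% of these lay in Th2 domains. With a Th2 distance over 120 kb, 19.3% were ES-only and the median Th2 domain around them was 1680 kb, against 1940 kb in the main analysis. With a distance over 400 kb these were 10.2% and 2440 kb, 84.4% were ES-only in the combined lists, and the ratio to Th2-only edges was 1.86. With starts compared only with starts and ends with ends, 19.4% were ES-only, 71.1% lay in Th2 domains and 74.3% were ES-only in the combined lists. In this setting an ES-only edge may lie at or near a Th2 edge of the other kind. The combined lists were still compared without regard to kind, so the last 2 shares are not like those of the main analysis. The combined lists gave 963 edges. With 1 library left out, the count was 551 to 714 and the share 19.1 to 24.1%. The part in Th2 domains was 78.3 to 85.9%, the part ES-only in the combined lists 71.8 to 78.8%, the ratio 0.905 to 1.56 and the median Th2 domain 1880 to 1980 kb. With a Th2 list left out, the part in Th2 domains refers to the 1 list left, not to both. In each of these ratios the cell type with 1 list needed no counterpart for its edges. The ratios are therefore not like that of the main analysis. Counting the edges of 1 gap once, chosen after the data were seen, gave 348 breaks, 82.2% of them in Th2 domains. Removing domains of 120 kb or less took none from ES replicate 1, whose shortest domain was 160 kb. The count stayed at 439, so this setting says little about how stable the results are. Leaving out chromosome X moved no result beyond its counting error. No paired analysis was possible because each value is taken from both libraries of a cell type together. Without read numbers, an edge missed for lack of depth and an edge absent from the cells cannot be told apart.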
